A study of Danio rerio with 4 samples.

Results

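The granulin family of the zebrafish is described here in the injured heart: the 4 genes *grn1*, *grn2*, *grna* and *grnb*, chosen by gene symbol out of 17221 genes in a table of normalized read counts. Their symbols were picked with the higher *grn1* value of the transgenic libraries already known, so the differences between groups are given as a description and without a test. Adult AB zebrafish were cryoinjured, that is, part of the ventricle wall was killed by freezing, and ventricles were collected 24 h later for messenger RNA sequencing. The control group was WT, and the other group was Tg(hsp70l:sflt4), which carries sflt4, a soluble version of Flt4, the receptor for Vegfc, under the heat-shock promoter of *hsp70l*. Heat shock at 39 °C followed cryoinjury in both groups, so every library comes from heat-shocked fish. Whether a heat-shock response remained at collection was not examined here. There were 2 libraries per group, each from a pool of 3 ventricles. Nothing in the labels says how the pools were formed, so any p-value here rests on the spread between these pools. A heat-shock promoter of this kind is not restricted to one cell type.

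Granulins are small, cysteine-rich protein modules held together by disulfide bonds. In mammals a single gene encodes progranulin, a secreted chain of such modules that is taken to the lysosome by the receptor sortilin or together with prosaposin and is cut there by cathepsins into single granulins. Progranulin is abundant in macrophages and microglia, is known for roles in wound repair and lysosome function, and its loss causes frontotemporal dementia in humans. Zebrafish carry a pair of long progranulin genes, *grna* and *grnb*, and a pair of short granulin genes found in fishes, *grn1* and *grn2*.

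Normalized totals were 34096403 and 33799004 for the WT replicates and lower, at 30171847 and 32774116, for the transgenic ones. Mitochondrial genes took 19.5% and 18.8% of the WT totals and a smaller 14.4% and 17.1% of the transgenic totals, with Tg(hsp70l:sflt4) replicate 1 lowest in both measures. For the 17071 genes that averaged 10 or more over the libraries, all 4 granulin genes included, the limma fit on log2(value + 1) called 0 genes (0%) at a Benjamini-Hochberg adjusted p under 0.05, with 1881 genes (11%) at an unadjusted p under 0.05. The limma-voom fit also called 0, with 2089 at an unadjusted p under 0.05. The WT libraries differed from each other by a root mean square of 0.72 on the log2 scale, within the 0.68 to 0.81 that separated libraries of different groups, while the Tg(hsp70l:sflt4) libraries differed by 0.55. Leaving out a library leaves its group without a replicate, so the spread in the fit comes from the other group alone. Calls from such fits are therefore listed only under the dependence on the processing and are not read as results. Heart muscle markers were abundant in every library, as the tissue label says, with *myl7*, the cardiac myosin light chain gene, at 204313 to 335222.

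The short gene *grn1* had the widest difference of the family. Its normalized read counts were 13171 and 7444 in the WT pair and 21140 and 27956 in the transgenic pair, here and below with replicate 1 of each pair first. Both transgenic libraries lay above both WT libraries, and the lower transgenic library was 1.61 times the higher WT library. The means were 10307.5 ± 4050 and 24548 ± 4820 (SD, n = 2 per group), a 2.38-fold ratio or a log2 difference of 1.30 (SE 0.31). The replicates themselves stood 1.77-fold apart in WT and 1.32-fold apart in Tg(hsp70l:sflt4), and the log2 difference ran from 0.88 without WT replicate 2 to 1.71 without WT replicate 1. Among all genes tested, 98.3% had a lower log2 difference. In bulk ventricle RNA, more cells of a type and more RNA per cell cannot be told apart.

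The neighbouring short gene *grn2* did not share that pattern. It read 1692 and 1288 in the WT pair and 928 and 1572 in the transgenic pair. The groups overlapped, since Tg(hsp70l:sflt4) replicate 2 lay between the WT libraries and replicate 1 below both. Group means were 1490 ± 286 and 1250 ± 455 (SD, n = 2 per group), a log2 difference of -0.29 (SE 0.28), which turned to 0.09 when Tg(hsp70l:sflt4) replicate 1 was left out. The reads of *grn1* per read of *grn2* were 7.78 and 5.78 in the WT pair and 22.8 and 17.8 in the transgenic pair. This within-library ratio does not depend on library scaling. The higher *grn1* value was known when the family was picked, and its gap between the groups exceeded any rise of *grn2* between them. The ratio therefore had to be higher in both transgenic libraries and adds nothing further. Transcript lengths were not used here, so the ratio is compared between libraries and not read as the relative level of the 2 genes.

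Of the long progranulin genes, *grna* had higher values in both transgenic libraries. In zebrafish it has been tied to liver growth and to muscle progenitor cells. It read 11977 and 12651 in the WT pair and 17429 and 15196 in the transgenic pair. The groups did not overlap, with the lower transgenic library at 15196 and the higher WT library at 12651. The means were 12314 ± 477 and 16312.5 ± 1579 (SD, n = 2 per group), 1.33-fold apart, with a log2 difference of 0.40 (SE 0.16). It stayed between 0.30 and 0.50 with any single library left out, and 86.2% of the genes tested had a lower log2 difference.

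The other long gene, *grnb*, carries annotation terms for axon extension and nerve cell growth in the authors' table, 39 terms in all, where the other 3 members carry none. It read 1361 and 1266 in the WT pair and 1230 and 1112 in the transgenic pair. In these values both WT libraries were above both transgenic ones, by as little as a factor of 1.03 between the nearest libraries. Scaling to equal totals, by 0.968 for WT replicate 2 and 1.084 for Tg(hsp70l:sflt4) replicate 1, made the groups overlap. The means were 1313.5 ± 67.2 and 1171 ± 83.4 (SD, n = 2 per group), and the log2 difference of -0.17 (SE 0.14) was -0.09 without Tg(hsp70l:sflt4) replicate 2 and -0.06 with the libraries scaled to equal totals. A smaller absolute log2 difference was found for 37.9% of the genes tested, so *grnb* lay well inside the bulk of the table.

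**Figure D1:**
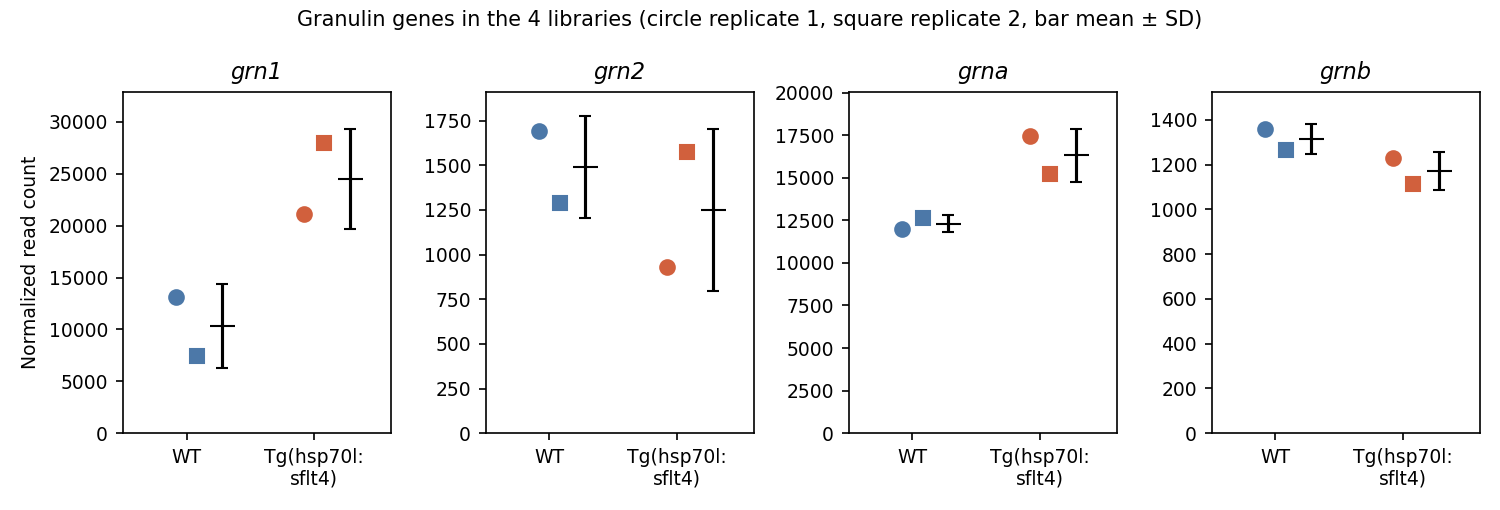
Normalized read count (y axis, from 0, one scale per gene) of the 4 granulin genes in the WT and Tg(hsp70l:sflt4) libraries. Circles are replicate 1, squares replicate 2, and the black bars give the mean ± SD of 2 libraries; *grn1* and *grna* are higher in both transgenic libraries, *grnb* is slightly lower and *grn2* overlaps.

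Groups that did not overlap were common in this table: 43.2% of the genes tested showed them, 21.8% with higher and 21.4% with lower values in Tg(hsp70l:sflt4). Of the 4 granulin genes, 2 were of the first kind and 1 of the second. As the family was picked with the comparison known, nothing is read from that count. The log2 differences of the 4 genes spanned -0.29 to 1.30, beside a median of -0.01 and a 5th to 95th percentile range of -0.90 to 0.79 for all genes tested. *grn1* lay outside that range and the other 3 members lay inside it.

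**Figure D2:**
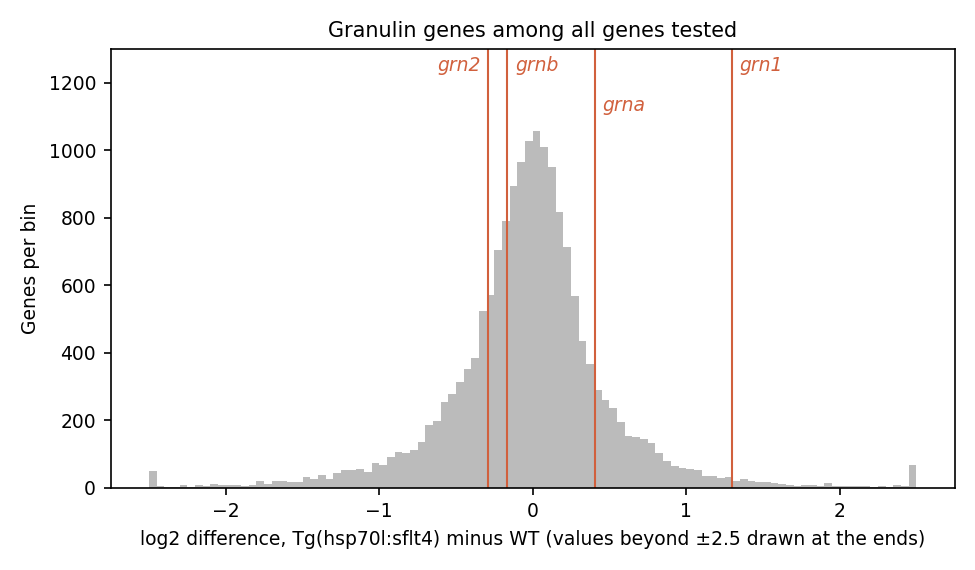
Distribution of log2 differences, Tg(hsp70l:sflt4) minus WT, over the 17071 genes tested (x axis; y axis, genes per bin of the histogram), with vertical lines at the 4 granulin genes. *grn1*, at 1.30, stands in the upper tail, and *grn2*, *grnb* and *grna* stand between -0.29 and 0.40.

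Summed over the 4 genes, granulin reads came to 28201 and 22649 in the WT pair and 40727 and 45836 in the transgenic pair. These sums made up 0.0827% and 0.067% of all normalized reads in the WT pair and 0.135% and 0.14% in the transgenic pair. The sum was 25425 ± 3926 in WT and 43281.5 ± 3613 in Tg(hsp70l:sflt4) (SD, n = 2 per group), 1.70-fold apart. Most of the gap between the sums came from *grn1*, whose share of the family's reads was 46.7% and 32.9% in the WT pair and 51.9% and 61.0% in the transgenic pair. The higher *grn1* value was known when the family was picked, and its gap between the groups exceeded any fall of *grn2* or *grnb*. With *grna* also higher, the sum had to separate the groups and adds nothing further. The reads of *grna* per read of *grnb* were 8.80 and 9.99 in the WT pair and 14.2 and 13.7 in the transgenic pair. In the values of the table *grna* was higher and *grnb* lower without overlap, so this ratio had to separate the groups and adds nothing further.

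The genes lie at 3 places in danRer11, the build of the table. *grn1* (ENSDARG00000089362, chromosome 19, 40186677 to 40192249, minus strand) and *grn2* (ENSDARG00000088641, chromosome 19, 40196462 to 40199098, minus strand) follow each other on one strand, 4212 bp apart. *grna* (ENSDARG00000004954, chromosome 3, 29914427 to 29941357, minus strand) and *grnb* (ENSDARG00000025081, chromosome 24, 36339242 to 36364591, plus strand) span 26931 and 25350 bp, against 5573 bp for *grn1* and 2637 bp for *grn2*. The reference name table lists *grn1* as *grna.1* and *grn2* as *grna.2*. RefSeq annotation of a newer assembly places a noncoding gene, *grnas*, over both short genes and another, *grnaas*, over *grna*. The libraries were made with a stranded kit, but the use of strand in counting was not given in the sources used here. Reads of these overlapping genes may therefore be mixed. Whether reads were split among the granulin genes was not checked, and their values are uncertain to that extent.

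Genes near the members showed no common direction around *grn1* and *grna*. Next to *grn1*, 348 bp away, *efcab1*, an EF-hand calcium-binding protein gene, had low values of 24 and 28 in the WT pair and 35 and 60 in the transgenic pair (log2 difference 0.80, SE 0.43, limma adjusted p = 0.544). The C-type lectin receptor gene *illr4*, from the neutrophil list, read 1051 and 1216 in the WT pair and 1446 and 2002 in the transgenic pair (0.59, SE 0.20, adjusted p = 0.398 by limma). Between them *rbm48*, an RNA-binding protein gene, was lower at 292 and 310 in the transgenic pair against 359 and 410 in the WT pair (log2 difference -0.35, SE 0.18, limma adjusted p = 0.529). *grna* stands head to head with *ifi35*, an interferon-induced gene 419 bp away on the opposite strand. *ifi35* read 860 and 1025 in the WT pair and 1537 and 909 in the transgenic pair, so its groups overlapped where those of *grna* did not. Around *grnb* the measured neighbours within 50 kb had negative log2 differences, from -0.62 for the gene *si:ch211-40k21.9* to -0.12 for *pus3*, a pseudouridine synthase gene. One of them is *naglu*, a lysosomal enzyme gene, at 368 and 377 in the WT pair and 288 and 258 in the transgenic pair (limma adjusted p = 0.445). Of all genes tested, 48.7% had a log2 difference above 0. The neighbours were named after their values were seen, so nothing is read from their direction at any of these places.

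**Figure D3:**
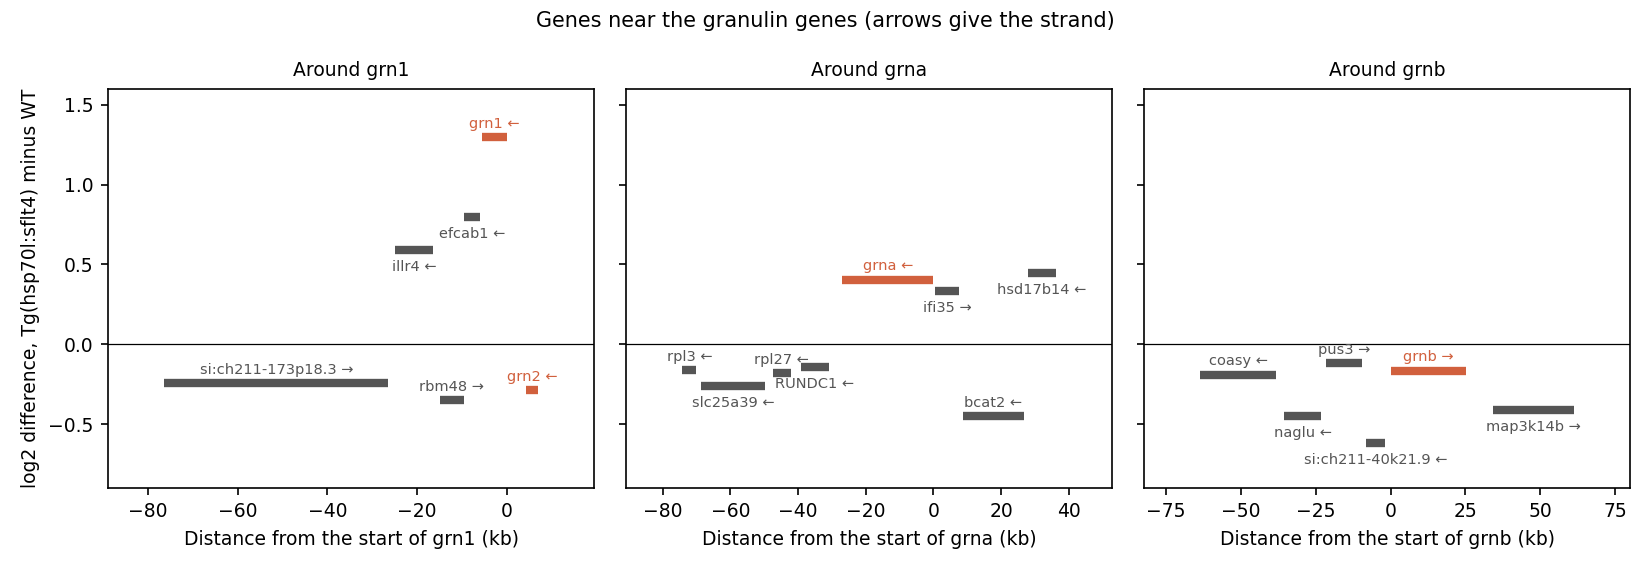
Genes within 50 kb of *grn1*, *grna* and *grnb*, drawn as bars at their distance from the start of that gene (x axis, kb) and at their log2 difference, Tg(hsp70l:sflt4) minus WT (y axis); granulin genes are in orange and arrows give the strand. *grn1* at 1.30 and *grn2* at -0.29 lie on opposite sides of 0 although they are adjacent.

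Other genes of the progranulin route gave no call. Of 27 listed receptors, partners and proteases, 23 had a row, 0 passed the limma test in either direction, and the smallest adjusted p was 0.406. The median log2 difference was 0.14, with 14 genes above 0 and 9 below, where 48.7% of all genes tested were above 0. The median was -0.03 without WT replicate 1, as it was when replicate 2 of the transgenic pair was left out, but 0.23 without WT replicate 2 and 0.25 with equal totals.

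Among receptors and carriers, the sortilin paralogues went apart. *sort1b* read 784 and 843 in the WT pair and 1050 and 1086 in the transgenic pair, without overlap (log2 difference 0.39, SE 0.14, limma adjusted p = 0.406). *sort1a* read 733 and 1336 in the WT pair and 677 and 480 in the transgenic pair, also without overlap and lower (-0.80, SE 0.32, limma adjusted p = 0.456). Prosaposin, the lysosomal travelling partner, was abundant and uneven, with *psap* at 41360 and 52797 in the WT pair and 45004 and 61766 in the transgenic pair. Of its receptor genes of the Lrp1 family, *lrp1aa* was at 2162 and 994 in the WT pair and 802 and 872 in the transgenic pair, while *lrp1ab* overlapped between groups (log2 difference -0.13). The mannose 6-phosphate receptor genes *m6pr* and *igf2r*, which sort enzymes to lysosomes, had log2 differences of 0.30 and 0.24 with groups that did not overlap. *tmem106ba* and *tmem106bb*, paralogues of the lysosomal gene that modifies progranulin disease in humans, had -0.35 and -0.46. Receptor genes reported to bind progranulin in mammals stayed near 0 or varied within groups: the values were 0.07 for *tnfrsf1a*, 0.26 for *tnfrsf1b*, 0.10 for *epha2a* and -0.27 for *epha2b*. *met*, the hepatocyte growth factor receptor gene that acts downstream of *grna* in zebrafish liver, was low at 16 to 38 in the 4 libraries. *hspg2*, for the matrix proteoglycan perlecan, which binds progranulin in mammals, had a log2 difference of -0.47 with overlapping groups.

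Protease genes were uneven between replicates. The cathepsin L gene *ctsla* read 31442 and 53448 in the WT pair and 40091 and 61393 in the transgenic pair, and the cathepsin D gene *ctsd* read 25924 and 58616 in the WT pair and 40130 and 57094 in the transgenic pair. *ctsba*, for cathepsin B, ranged most widely, at 19410 and 55031 in the WT pair and 32580 and 101555 in the transgenic pair. In each of these 3 genes replicate 1 was the lower library of its group, so the libraries of a group lay further apart than the group means. *lgmn*, for the asparaginyl protease legumain, went the same way at 42056 and 61496 in the WT pair and 50465 and 66447 in the transgenic pair. The paralogue *ctsbb* was near the lower limit of the table at 2 to 25, and so was *adamts7* at 14 to 31, a gene whose mammalian product cuts progranulin. The membrane protease genes *mmp14a* and *mmp14b*, whose mammalian relative also cuts progranulin, had log2 differences of -0.39 and 0.14, each without overlap of the groups and each with a limma adjusted p of 0.439 or above.

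**Figure D4:**
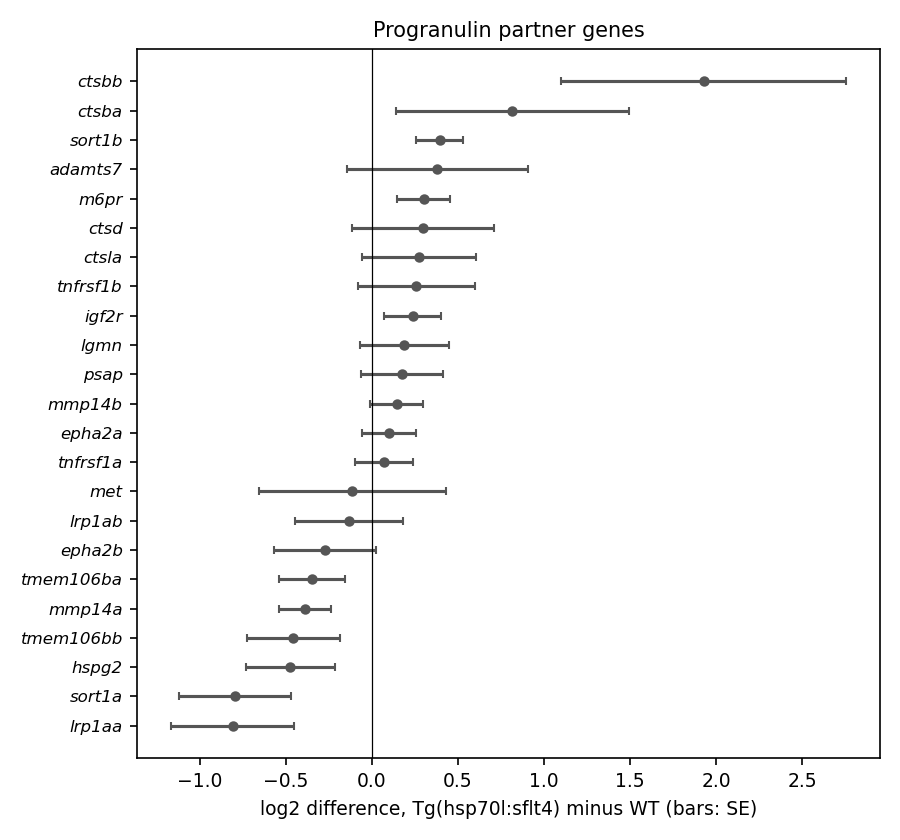
Log2 difference, Tg(hsp70l:sflt4) minus WT (x axis), for the 23 measured receptor, partner and protease genes of the progranulin route (y axis); bars are the SE of the limma fit. The values run from -0.81 for *lrp1aa* to 1.93 for the low gene *ctsbb*, on both sides of 0.

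Leukocyte markers had higher values in the transgenic libraries, as *grn1* and *grna* did, and their part in the granulin differences was not tested. All 10 genes of a leukocyte list had a positive log2 difference, with a median of 0.58, and 9 of the 10 were higher without overlap of the groups, as were 21.8% of all genes tested, while 0 passed the limma test over all genes (smallest adjusted p = 0.313). This list and the other lists were chosen with earlier results of these data known. Their counts beside the share of all genes are therefore a description. The summed list was 56574 and 62376 in the WT pair and 78477 and 101662 in the transgenic pair, and no member was at 0 in any library. *ptprc*, the CD45 gene of all white blood cells, read 5066 and 5070 in the WT pair and 6792 and 8594 in the transgenic pair (limma adjusted p = 0.357). *coro1a*, for a leukocyte actin regulator, read 5930 and 6466 in the WT pair and 9018 and 11983 in the transgenic pair (limma adjusted p = 0.315). The ratio of means was 1.52 for *ptprc* and 1.69 for *coro1a*, beside 2.38 for *grn1* and 1.33 for *grna*. The next genes of the list, *lcp1* (1.66), *laptm5* (1.34), *rac2* (1.47) and *plek* (1.42), had ratios of means in the same range, each without overlap and none past the limma test.

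Macrophage markers varied among themselves. Of 25 listed genes 24 had a row and 0 passed the limma test (smallest adjusted p = 0.313), with 20 above 0, 4 below and a median log2 difference of 0.46. This median was 0.27 without WT replicate 1 and 0.26 without Tg(hsp70l:sflt4) replicate 2. Of the 24 genes, 11 were higher and 3 lower without overlap, beside 21.8% and 21.4% of all genes tested. The defining markers were present in all 4 libraries but did not go one way. *mpeg1.1*, for the macrophage pore protein perforin-2, read 5184 and 4611 in the WT pair and 4320 and 5642 in the transgenic pair, with overlap. *mpeg1.2*, its paralogue, ranged from 461 to 3108 within the WT pair alone. *csf1ra*, for the receptor of macrophage growth factor, was lower at 1165 and 829 in the transgenic pair against 2129 and 1179 in the WT pair (log2 difference -0.69, limma adjusted p = 0.492), and its paralogue *csf1rb* was low at 2 to 52. *irf8*, for a transcription factor of macrophage fate, was higher in both transgenic libraries (log2 difference 0.65, limma adjusted p = 0.313), and so was the macrophage gene *mfap4* (0.78, adjusted p = 0.357 by limma). The summed list was 51850 and 75155 in the WT pair and 75441 and 99283 in the transgenic pair.

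Each library's *grn1* value was also set against that sum. As the higher *grn1* value was known when the family was picked, these ratios are a description. Nothing is read from their separation of the groups on any list. The reads of *grn1* per read of the summed macrophage list were 0.254 and 0.099 in the WT pair and 0.28 and 0.282 in the transgenic pair. On this list WT replicate 1 was thus close to the transgenic libraries and WT replicate 2 far below them. Against the summed leukocyte list the same ratio was 0.233 and 0.119 in the WT pair and 0.269 and 0.275 in the transgenic pair. In the neutrophil list, the gene *adam8a* was the largest part of the sum in every library. Against that list the ratio was 0.335 and 0.146 in the WT pair and 0.407 and 0.419 in the transgenic pair. Against a list of lysosome genes it was 0.095 and 0.043 in the WT pair and 0.134 and 0.143 in the transgenic pair. On these lists WT replicate 1 lay further below the transgenic pair, in proportion, than on the macrophage list. For *grna* the ratio to the macrophage list was 0.231 and 0.168 in the WT pair and 0.231 and 0.153 in the transgenic pair, so the groups overlapped.

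Neutrophil markers gave 0 calls among 18 measured of 19 listed genes (smallest limma adjusted p = 0.366), with 12 above 0, 6 below and a median log2 difference of 0.26, which was 0.43 or 0.10 when replicate 1 or replicate 2 of the transgenic pair was left out. The summed list was 39284 and 50955 in the WT pair and 51886 and 66755 in the transgenic pair. The myeloperoxidase gene *mpx* overlapped between groups, at 2467 and 3081 in the WT pair and 2406 and 3896 in the transgenic pair. The lysozyme gene *lyz* was low, at 38 and 29 in the WT pair and 12 and 6 in the transgenic pair, without overlap (log2 difference -1.84, SE 0.55, limma adjusted p = 0.366). The granule and protease genes *mmp13a* (log2 difference -0.68), *mmp9* (-0.06), *npsn* (-0.01) and *cpa5* (-0.86) overlapped between groups. Of the 18 genes, 7 were higher without overlap and 1 lower, beside 21.8% and 21.4% of all genes tested. Those 7, which include *lect2l* at 750 and 931 in the WT pair and 1151 and 2506 in the transgenic pair, lie outside the 6 listed first, and *lect2l* was chosen after its values were seen. Lymphocyte markers were sparse, with 8 of 14 listed genes measured and sums of 459 and 629 in the WT pair and 745 and 632 in the transgenic pair.

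Genes of the lysosome, where progranulin acts in mammals, gave 0 calls among 33 measured of 35 listed (smallest limma adjusted p = 0.37). Their median log2 difference was 0.19, with 25 above 0 and 8 below. Of the 33 genes, 9 were higher and 4 lower without overlap, beside 21.8% and 21.4% of all genes tested. The median was 0.10 without WT replicate 1, 0.30 with equal totals, and 0.33 or 0.11 when replicate 1 or replicate 2 of the transgenic pair was left out. The hexosaminidase gene *hexb* read 3389 and 4991 in the WT pair and 4798 and 6334 in the transgenic pair, with overlap. *lamp1b*, for a major lysosome membrane protein, was lower without overlap, at 1701 and 1636 in the transgenic pair against 1881 and 2431 in the WT pair (log2 difference -0.36, limma adjusted p = 0.499). The other hexosaminidase gene, *hexa*, had a log2 difference of -0.04. *gpnmb*, a marker of lysosomal stress in mammalian macrophages, was low at 38 and 83 in the WT pair and 77 and 86 in the transgenic pair. The glucocerebrosidase gene *gba* had a log2 difference of 0.05, and *lamp2*, for an abundant lysosome membrane protein, one of -0.09. *tfeb*, for the transcription factor that drives lysosome genes, had 0.00 (limma adjusted p = 0.995).

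Of the other cell types, heart muscle markers had a median log2 difference of -0.22, with 8 of 11 below 0, and summed to 1607417 to 1794204 in WT and 1276560 to 1356251 in Tg(hsp70l:sflt4). The gene *myh7l* was the largest part of that sum in every library. Of the 11 genes, 6 were lower and 1 higher without overlap, beside 21.4% and 21.8% of all genes tested. The higher one was *myh6* (log2 difference 0.74). Endothelial markers had a median of -0.04 and included *kdrl* (-0.39), *cdh5* (0.04) and *fli1a* (-0.01). Epicardial and fibroblast markers had a median of -0.18, erythrocyte markers -0.10 and thrombocyte markers -0.24. Of 8 listed epidermal genes 3 were measured, led by the keratin gene *krt4* at 13602 and 5895 in the WT pair and 8667 and 9488 in the transgenic pair. None of the genes in these lists passed the limma test over all genes, the smallest adjusted p being 0.401.

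**Figure D5:**
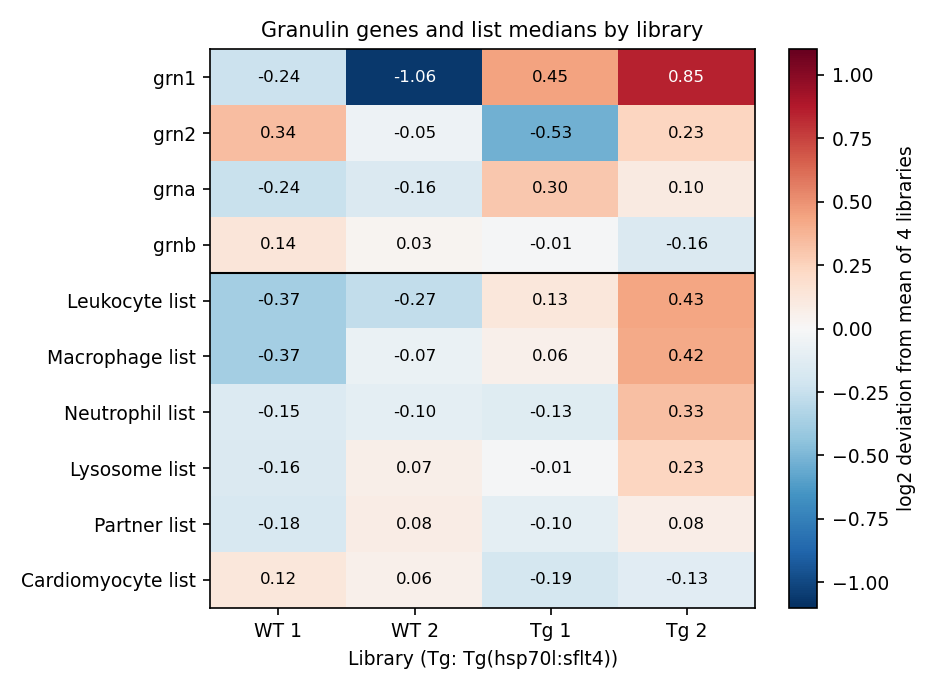
Log2 deviation from the mean of the 4 libraries (color and printed value) for each granulin gene and for the median gene of 6 lists (rows), by library (columns). The leukocyte list is lower in both WT and higher in both Tg(hsp70l:sflt4) libraries, while *grn1* has its lowest value in WT replicate 2, where the macrophage list is near its mean.

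The libraries in which each member was high or low were set beside those of 4315 other genes with a plain symbol and a mean of at least 1000, by the root mean square distance between log2 profiles centered on their means over the 4 libraries. With 4 libraries such likeness is loose, and it is given as a description. Closest to *grn1* was *ptx3a*, a pentraxin gene, at a distance of 0.10 where the spread of *grn1* itself was 0.72, with 3226 and 2230 in the WT pair and 5689 and 7609 in the transgenic pair. The prostaglandin reductase gene *ptgr1* (0.13), the sulfotransferase gene *chst15* (0.19), the matrix protein gene *tgfbi* (0.19) and *cabz01093075.1* (0.21) came next. The nearest to *grn2* were the ribosomal protein genes *rps28* (0.05), *rps12* (0.07) and *rps26* (0.10), with the respiratory chain genes *cox4i1l* (0.09) and *mt-co3* (0.09). *rps28* read 15507 and 11685 in the WT pair and 9153 and 14405 in the transgenic pair, with the lowest value in Tg(hsp70l:sflt4) replicate 1 as for *grn2*.

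For *grna* the nearest genes were *ostf1* (0.02), for an SH3-domain protein, then *mych* (0.04), *plp2* (0.04), *ywhae2* (0.06) and *zmiz1a* (0.06). *ostf1* read 3919 and 4077 in the WT pair and 5665 and 5106 in the transgenic pair. For *grnb*, whose own spread was 0.11, the distances of 0.01 to 0.02 to *mkln1*, *rab13*, *mob1ba* and *tcf20* say little beyond a small common range. Between members the distances were 0.82 for *grn1* and *grn2*, 0.80 for *grn1* and *grnb*, 0.59 for *grn1* and *grna*, 0.51 for *grn2* and *grna*, 0.34 for *grn2* and *grnb*, and 0.29 for *grna* and *grnb*. The adjacent short genes were no closer to each other across the 4 libraries than members on separate chromosomes. The higher *grn1* value was known when the family was picked and enters each distance from *grn1*. Nothing further is therefore read from the distance between the short genes.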

How the data were processed

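The deposited values are scores in the sense of read counts that the authors scaled per library and rounded to whole numbers. Per the submitters' processing notes, the build was danRer11 and the tools included DESeq2 1.18.1, featureCounts 1.6.3, Subread, Trimmomatic 0.38 and FastQC, with no roles stated. An aligner was not given in the sources used here. Whole reads were not recovered, so no test on raw counts was run. The limma-voom fit, a method made for counts, took the same scaled values and rescaled them by library total. The median log2 difference of all genes was 0.098 in that fit. Genes with a mean of at least 10 were tested with limma 3.58.1 (R 4.3.3; trend, robust, no covariate) on log2(value + 1), a scale that understates changes of low genes, with Benjamini-Hochberg adjustment over 17071 genes at 0.05. The fit was also run on simulated data, with planted changes larger than any granulin difference. That run does not bear on changes of the size seen in the granulin genes. With 2 against 2 libraries an exact two-sided permutation p cannot go below 0.333.

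The members and the 12 lists were chosen with earlier results of these data known. Of 180 listed symbols 160 had a row, 6 of them through gene identifiers; where 3 symbols had several rows the most abundant was used. Named genes were the members, measured partners, the first 6 measured genes of the lysosome, macrophage, neutrophil and leukocyte lists, up to 3 of each other list and the 5 nearest profiles per member, of which 1 is not reported; *tfeb*, *lect2l* and the neighbours within 50 kb were named after their values were seen. Means carry the SD of 2 libraries. Depth in raw reads is not recorded in the table, so no counting intervals are given. Protein and promoter sequences were not used here.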

Additional observations from a re-analysis of the deposited data

How the results depend on the processing

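Each of the 4 log2 differences of the granulin genes, and that of their sum, kept its direction under equal totals, TMM scaling and a pseudocount of 5. With every member at 928 or more, a pseudocount of 5 could hardly move these differences. TMM scaling moved the median of all genes only from -0.01 to -0.004. These 2 settings are therefore weak checks. With libraries scaled to equal totals, which moves the median of all genes from -0.01 to 0.10, *grna* was 0.51 and *grnb* -0.056. Leaving out single libraries gave 0.88 to 1.71 for *grn1*, -0.67 to 0.091 for *grn2*, 0.30 to 0.50 for *grna*, -0.24 to -0.09 for *grnb* and 0.62 to 0.93 for the sum (0.77 with all libraries); *grn2* turned positive without Tg(hsp70l:sflt4) replicate 1. The list alternatives were chosen after seeing the data, and the median of the partner list ran from -0.032 to 0.228 with single libraries left out, being -0.032 without WT replicate 1 or Tg(hsp70l:sflt4) replicate 2. The limma fit called 0 to 217 genes with single libraries left out (217 without WT replicate 1, 73 without WT replicate 2) and 0 under every other setting. Without a WT library, the spread in the fit came from the transgenic pair alone. The libraries of that pair differed by a root mean square of 0.55 on the log2 scale, against 0.72 for the WT pair. Without a transgenic library, the spread came from the WT pair alone. The counts from fits with a library left out are therefore not read as genes that differ between the groups. Deviations of same-numbered libraries correlated at 0.137 across genes, with nothing in the labels to pair them. A limma fit with the replicate as a block called 0 genes, with 2285 against 1881 at an unadjusted p under 0.05. In this balanced layout such a block cannot change the members' log2 differences, so it is no check on them. With 2 libraries a group, the cause of the shifts in log2 differences seen when single libraries were left out was not tested.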
